A study of Homo sapiens with 8 samples.

Results

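The genes described here are EGR1, EGR2, EGR3, EGR4, NR4A1, NR4A2, NR4A3, IER2, IER3 and SRF in HAP1 cells depleted of the NELF complex by CRISPR interference. They were chosen by name, as immediate early genes outside the AP-1 family together with the factor SRF. The choice was made with earlier results of these data known. They make up 10 of the 60725 genes in the table. All 10 had reads in at least 1 library, and 9 of them passed the filter on low counts. EGR4 did not, since it had at most 6 reads in any library. One of the 9, EGR3, was higher in every knockdown library than in every control library, as were 14.7% of the 16367 genes tested for both knockdowns together. EGR1 had the largest fitted change among the 9 and the widest spread within groups, and it did not pass the main edgeR test (filtered counts, all 8 libraries, no replicate term), although some alternatives called it. IER2 and IER3 rose with the NELFB guide, but neither call held when control replicate 2 was left out. No change passed the main test for EGR2, the 3 NR4A genes or SRF. With the NELFB guide, however, 1 or 2 alternatives each called NR4A2 lower and EGR2, NR4A3 and SRF higher.

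Immediate early genes are switched on within minutes of a signal reaching the cell, without new protein synthesis, and their RNAs are short-lived. The EGR proteins are zinc finger transcription factors and the NR4A proteins are nuclear receptors that act without a known hormone. IER2 and IER3 are small proteins induced by growth factors and stress, and SRF is the transcription factor that binds the CArG box in many early gene promoters together with ETS-type or MRTF cofactors. NELF holds RNA polymerase II in a paused state shortly after initiation, a state in which many early genes are found before a stimulus.

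HAP1 is a near-haploid human leukaemia-derived line that grows as adherent cells. A single clone, SC9, that carried dCas9 fused to the KRAB repressor domain was transduced with a lentiviral guide against NELFE (3 libraries), NELFB (2 libraries) or ADAM22 (the control guide, pLB187, 3 libraries). All groups were grown with serum, selected with puromycin from 48 h after transduction and harvested for polyadenylated RNA at 144 h. The study's methods describe no acute stimulus, and every group shared the same clone, repressor and selection. The control libraries held 23119332 to 24444185 counted reads, the NELFE knockdown libraries 22037423 to 23565963, and the NELFB knockdown libraries 23087766 and 23843603. With 1 clone, p-values measure the spread between these transduced cultures and say nothing of other clones.

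The target of each guide was low in the libraries labelled with it. NELFE RNA was 2.37 to 2.98 CPM (counts scaled to library size, normalised by the trimmed mean of M-values) in the NELFE knockdown libraries against 48.1 to 50.5 in the control libraries. NELFB RNA was 2.78 and 3.07 CPM in the NELFB knockdown libraries against 72.7 to 79.1 in the control libraries. ADAM22, the target of the control guide, was at 11.3 to 13.7 CPM in the control libraries and 29.9 to 47.4 CPM in the 5 knockdown libraries, so the reference cells differed from the knockdown cells in ADAM22 too.

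RefSeq promoter windows (GRCh38.p14), which run from 250 bases before to 50 bases after an annotated start, were found for 7 of the 10 genes, 11 windows in all. The genes EGR3, NR4A2 and IER3 had none. The stretches before the start are printed for the 3 genes with a CArG box, the motif bound by SRF, because SRF is itself among the genes described. Capitals mark each CArG box, which is CC, then 6 bases that are each A or T, then GG, and which reads as a CArG box on both strands. The EGR1 stretch is chr5:138465229-138465478 on the plus strand, the EGR2 stretch is chr10:62816367-62816466 on the minus strand, and the SRF stretch is chr6:43171169-43171268 on the plus strand. Each is written 5′ to 3′ and ends at the base before the start, and the EGR2 stretch lies within longer annotated EGR2 transcripts.
EGR1: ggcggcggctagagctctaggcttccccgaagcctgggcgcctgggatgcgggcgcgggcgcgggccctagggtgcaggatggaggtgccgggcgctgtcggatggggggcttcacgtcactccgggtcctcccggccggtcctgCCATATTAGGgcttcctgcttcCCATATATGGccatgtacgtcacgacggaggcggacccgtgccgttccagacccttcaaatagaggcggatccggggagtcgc
EGR2: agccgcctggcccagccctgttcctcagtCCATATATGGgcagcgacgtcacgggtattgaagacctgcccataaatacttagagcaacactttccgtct
SRF: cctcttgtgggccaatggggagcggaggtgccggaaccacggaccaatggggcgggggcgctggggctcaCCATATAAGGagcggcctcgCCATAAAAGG

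EGR1 held 2 CArG boxes, with first bases 105 and 83 bases before the start, and SRF held 2, at 30 and 10 bases before it. EGR2 held 1, at 71 bases before the start of its canonical transcript. Of all 35116 human promoter windows, 1.29% held a CArG box and 0.0313% held 2 or more. The letters TGACGT, a cyclic AMP response element half-site searched on both strands, occurred 2 times in the EGR1 window, 1 time in the EGR2 window, 2 times in the EGR4 window and 3 times in the NR4A3 window, against 7.98% of all windows with at least 1 match. The EGR recognition letters GCGGGGGCG occurred in the SRF window only, as in 5.07% of all windows. The TATA letters TATAAA, found in 11.5% of all windows, occurred after the start in 1 SRF window and in no other window here. A match says that the letters are there and not that a factor was bound. The windows of NR4A1 lay 28610 and 13727 bases from the start of its canonical transcript, so they do not show the promoter of that transcript.

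**Figure D1:**
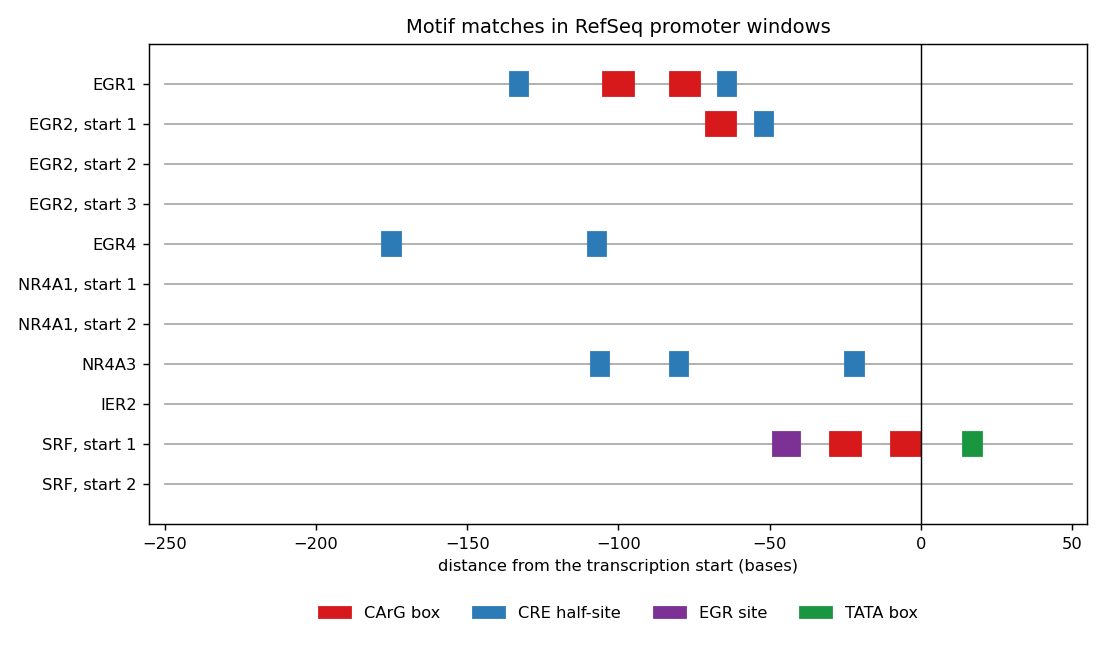
Motif matches in the 11 RefSeq promoter windows of 7 genes, by distance in bases from the annotated start (vertical line). Starts of a gene with several windows are numbered by their distance from the canonical start. Coloured boxes are matches to the CArG box, the cyclic AMP response element half-site, the EGR recognition letters and the TATA box. The CArG boxes lie in EGR1, EGR2 and SRF.

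Levels of different genes were compared per length, as TPM (counts scaled by gene length and library size), from the exon length of GENCODE v44. In control cells SRF was the most abundant, with a TPM of 79.8 ± 8.44 (SD, n = 3), followed by EGR1 at 38.4 ± 35.3 and IER2 at 27.1 ± 5.51. NR4A1 (13.3 ± 1.10 TPM), NR4A2 (13.1 ± 1.88 TPM) and IER3 (9.91 ± 4.24 TPM) came next, and the median over the genes tested in the 3-group model was 15.8 TPM. EGR3 (1.90 ± 0.324 TPM), EGR2 (1.48 ± 0.348 TPM), NR4A3 (0.645 ± 0.143 TPM) and EGR4 (0.0233 ± 0.0404 TPM) were the lowest. The control libraries of neighbours in this order overlapped for SRF and EGR1, EGR1 and IER2, NR4A1 and NR4A2, NR4A2 and IER3, and EGR3 and EGR2, so those neighbours were not separated beyond their spread. In both knockdowns EGR1 had the highest mean TPM of the 10, 124.6 ± 121.2 (SD, n = 3) with the NELFE guide and 373.7 ± 143.2 (SD, n = 2) with the NELFB guide. The NELFE rank rested on replicate 2, without which the mean TPM was 56.2 for EGR1 and 87.1 for SRF.

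Among the EGR genes, EGR3 rose with either guide. EGR3 (chr8:22687659-22693480, GRCh38) is a zinc finger factor known as a target of calcium and growth factor signals. Its level was 2.08, 2.79 and 2.14 CPM in the control libraries, 5.19, 7.66 and 4.51 CPM in the NELFE knockdown libraries, and 10.1 and 15.2 CPM in the NELFB knockdown libraries. The 3 groups did not overlap: every NELFE knockdown library lay above every control library and below both NELFB knockdown libraries. In the quasi-likelihood test of edgeR, with p-values adjusted over all tested genes by the Benjamini-Hochberg method, EGR3 was 3.65-fold higher in the 5 knockdown libraries together (log2 fold change 1.87, SE 0.391, adjusted p = 0.00705), 2.48-fold higher with the NELFE guide (log2 fold change 1.31, SE 0.251, adjusted p = 0.00881) and 5.39-fold higher with the NELFB guide (log2 fold change 2.43, SE 0.263, adjusted p = 0.000387). Without control replicate 1 the adjusted p in the 5 libraries together was 0.0501, and without a filter on low counts it was 0.0605, by the same edgeR test. The calls for each guide on its own held when any single library was left out, with adjusted p-values up to 0.0340 for NELFE and 0.0064 for NELFB by edgeR.

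EGR1 (chr5:138465479-138469303), long used as a readout of ERK signalling, gave the largest and least certain values. The control libraries had 18.7, 60.1 and 9.37 CPM, the NELFE knockdown libraries 60.5, 193.8 and 23.8 CPM, and the NELFB knockdown libraries 206.5 and 359.3 CPM. Both NELFB knockdown libraries lay above every control library, whereas NELFE replicate 3 lay below control replicate 2. Replicate 2 was the highest in each group, and within each replicate number the control library was the lowest. The fitted log2 fold change was 1.66 (95% interval -0.68 to 4.01) with the NELFE guide, 3.27 (0.70 to 5.84) with the NELFB guide and 2.52 (-0.12 to 5.17) for both together. In the same edgeR test none of these passed 0.05 (adjusted p = 0.303, 0.0802 and 0.144). DESeq2 gave an adjusted p of 0.0292 for both knockdowns together, 0.0241 for NELFB and 0.284 for NELFE. Over 14 alternatives the adjusted p for both knockdowns together ranged from 0.0292 to 0.313, and DESeq2 alone called it. For NELFB, 5 of 15 alternatives called EGR1, among them edgeR with at least 10 counts in every library (adjusted p = 0.0478), with only the libraries of the 2 groups (0.0417) and without NELFE replicate 2 (0.0431), and the highest adjusted p was 0.232. The edgeR fit with the replicate number as a block also called it for NELFB (adjusted p = 2.0e-07), although replicate numbers were not taken as pairing the libraries. For NELFE, 1 of 15 alternatives called EGR1, the same block fit, and the adjusted p ranged from 2.1e-05 to 0.749. Without NELFE replicate 2 the log2 fold change with that guide was 0.53, and without control replicate 2 it was 2.72.

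EGR2 and EGR4 were at the low end of detection. EGR2 (chr10:62811996-62819167), known for its part in hindbrain and myelin formation, had 1.64, 1.33 and 1.05 CPM in the control libraries, 1.08, 1.89 and 1.49 CPM with the NELFE guide and 2.41 and 2.09 CPM with the NELFB guide, from 24 to 58 reads a library. Both NELFB knockdown libraries were above all other libraries, and the NELFE knockdown libraries overlapped the controls. The log2 fold change was 0.14 (95% interval -0.45 to 0.73) for NELFE and 0.74 (0.12 to 1.37) for NELFB, with adjusted p-values of 0.762 and 0.0897 by edgeR. For NELFB, 1 of 15 alternatives called EGR2, without control replicate 1 (log2 fold change 0.92, edgeR adjusted p = 0.0458), and the highest adjusted p was 0.379. EGR4 (chr2:73290929-73293701), a family member described mainly in neurons and germ cells, had 1, 0 and 0 reads in the control libraries, 2, 1 and 0 with the NELFE guide and 6 and 3 with the NELFB guide. These reads are too few for a fold change, and EGR4 was left out of the main test. The fit without a filter on low counts included EGR4 and called it higher with the NELFB guide, a call that rests on these few reads. NAB1 and NAB2, corepressors that bind EGR proteins, had log2 fold changes of 0.10 and 0.30 in both knockdowns together, and neither passed the test (edgeR adjusted p = 0.429 and 0.0559).

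The NR4A genes showed no change that passed the main edgeR test. NR4A1 (chr12:52022832-52059507, also known as NUR77) was at 25.6, 22.4 and 23.1 CPM in the control libraries, 19.8, 21.5 and 20.9 CPM with the NELFE guide and 23.5 and 30.2 CPM with the NELFB guide. All NELFE knockdown libraries lay below the controls by a small margin, and the NELFB knockdown libraries overlapped them. The log2 fold change was -0.20 (95% interval -0.44 to 0.05) for NELFE and 0.18 (-0.09 to 0.45) for NELFB, and both intervals lie within 0.5 log2 units of 0. The antisense gene NR4A1AS overlaps NR4A1, and since the reads were counted without strand its signal and that of NR4A1 cannot be told apart where they overlap. The same holds for NR4A3 and STX17-DT, and for IER3 with IER3-AS1 and HCG20. Opposite-strand genes without a symbol also overlap EGR3 and IER2, and each had 0 reads.

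NR4A2 (chr2:156324437-156342348), known for its part in dopaminergic neurons, was at 13.0, 15.0 and 11.5 CPM in the control libraries, 15.2, 15.0 and 8.38 CPM with the NELFE guide and 8.30 and 10.6 CPM with the NELFB guide. Both NELFB knockdown libraries and NELFE replicate 3 lay below every control library. The log2 fold change was -0.03 (95% interval -0.51 to 0.44) for NELFE and -0.48 (-1.02 to 0.07) for NELFB, and neither passed the test (edgeR adjusted p = 0.938 and 0.196). Without a filter on low counts the edgeR adjusted p of NR4A2 for NELFB was 0.0335, and over 15 alternatives, 2 of which called it, it ranged from 0.0088 to 0.596. NR4A3 (chr9:99821855-99866891) was at 0.881, 0.842 and 1.27 CPM in the control libraries, 1.45, 0.774 and 1.40 CPM with the NELFE guide and 2.37 and 1.45 CPM with the NELFB guide, from 18 to 57 reads a library. The NELFB knockdown libraries lay above the controls, and the NELFE knockdown libraries lay on both sides of them. The NR4A3 log2 fold change was 0.28 (95% interval -0.45 to 1.00) for NELFE and 0.94 (0.18 to 1.69) for NELFB (edgeR adjusted p = 0.611 and 0.0776). Without a filter on low counts the edgeR adjusted p of NR4A3 for NELFB was 0.0355, and over 15 alternatives, 2 of which called it, it ranged from 0.0128 to 0.515. RXRA and RXRB, the tested members of the retinoid X receptors with which NR4A1 and NR4A2 can pair, did not pass the test in any comparison with control.

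The IER genes rose with the NELFB guide. IER2 (chr19:13150411-13154911), a nuclear protein induced by growth factors, was at 24.8, 18.4 and 17.8 CPM in the control libraries, 23.8, 27.4 and 22.4 CPM with the NELFE guide and 29.6 and 34.9 CPM with the NELFB guide. Both NELFB knockdown libraries exceeded all other libraries, and control replicate 1 lay within the range of the NELFE knockdown libraries. IER2 was 1.58-fold higher with the NELFB guide (log2 fold change 0.66, SE 0.154, edgeR adjusted p = 0.0151), whereas the log2 fold change with the NELFE guide was 0.27 (95% interval -0.04 to 0.58, edgeR adjusted p = 0.223). Without control replicate 1 the NELFE value for IER2 was called (log2 fold change 0.44, edgeR adjusted p = 0.0323), the only call in 15 alternatives, with adjusted p-values up to 0.522.

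IER3 (chr6:30743199-30744548, also known as IEX-1), a stress-inducible regulator of cell survival, was at 4.65, 1.91 and 3.24 CPM in the control libraries, 4.53, 3.87 and 7.12 CPM with the NELFE guide and 9.87 and 7.39 CPM with the NELFB guide. The NELFB knockdown libraries again lay above all others, and control replicate 1 exceeded NELFE replicates 1 and 2. IER3 was 2.63-fold higher with the NELFB guide (log2 fold change 1.40, SE 0.338, edgeR adjusted p = 0.0176), and its log2 fold change with the NELFE guide was 0.65 (95% interval -0.05 to 1.36, edgeR adjusted p = 0.192). For NELFE, 2 of 15 alternatives called IER3, edgeR without a filter on low counts (adjusted p = 0.0155) and with the replicate number as a block (0.0371), and the highest adjusted p was 0.463. The NELFB call was lost by edgeR for both IER genes without control replicate 2 (adjusted p = 0.0595 for IER2 and 0.0512 for IER3), without NELFB replicate 1 (0.0668 and 0.175) and without NELFB replicate 2 (0.130 and 0.0537). For both knockdowns together IER2 and IER3 just missed the threshold, at adjusted p = 0.0539 and 0.0505 by edgeR, and passed it at 0.0276 and 0.0106 by DESeq2. Over 14 alternatives the adjusted p ranged from 0.0078 to 0.187 for IER2 and from 0.0106 to 0.225 for IER3.

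SRF itself (chr6:43171269-43181506) differed little. It was at 72.6, 82.7 and 92.5 CPM in the control libraries, 81.1, 74.9 and 98.2 CPM with the NELFE guide and 100.6 and 97.0 CPM with the NELFB guide. The NELFE knockdown libraries overlapped the controls, and the NELFB knockdown libraries lay just above the highest control but on both sides of NELFE replicate 3. The log2 fold change was 0.04 (95% interval -0.22 to 0.29) for NELFE and 0.26 (-0.02 to 0.54) for NELFB, and neither passed the test (edgeR adjusted p = 0.865 and 0.179). For NELFB, 1 of 15 alternatives called SRF, with edgeR adjusted p-values from 0.0066 to 0.519 over them.

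**Figure D2:**
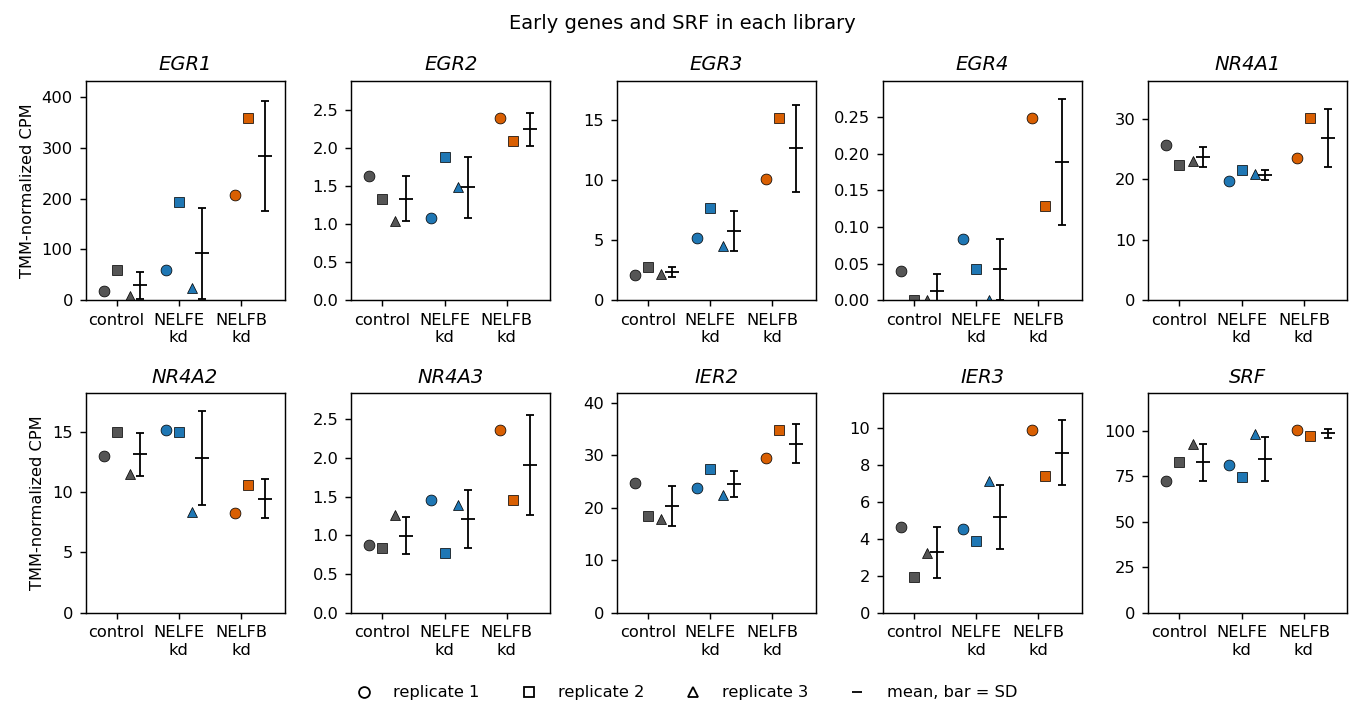
TMM-normalised CPM of each of the 10 genes in every library (points, shape by replicate), with the mean and SD of each group beside them; every axis starts at 0 and has its own scale. EGR3 is the gene whose 5 knockdown libraries all lie above the 3 control libraries, EGR1 spreads from 9.37 to 60.1 CPM within the control group, and EGR4 rests on at most 6 reads.

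Counted over the 9 tested genes, 1 was called higher and 0 lower in both knockdowns together by edgeR, against 13.3% of 16367 tested genes called higher and 12.7% called lower. By DESeq2 the count was 4 higher (EGR1, EGR3, IER2 and IER3) and 0 lower, against 14.2% of those genes called higher and 13.8% lower by DESeq2. By edgeR, 3 of the 9 had an unadjusted p under 0.05, as 38.5% of all tested genes did. With the NELFE guide 1 of 9 (EGR3) was higher and 0 lower by edgeR and by DESeq2, with 1 at an unadjusted p under 0.05 (30.9% of all tested genes), where 7.92% and 7.04% of 16852 genes were called higher and lower by edgeR and 8.91% and 8.25% by DESeq2. With the NELFB guide 3 of 9 (EGR3, IER2 and IER3) were higher and 0 lower by edgeR, with 6 at an unadjusted p under 0.05 (34.7% of all tested genes), where 10.6% of genes were called higher and 8.88% lower. One of the 9 had all 5 knockdown libraries above all 3 control libraries and 0 had them all below, against 14.7% and 14% of all tested genes. By edgeR the share of 1 in 9 is therefore near the background for both knockdowns together and for NELFE, whereas by DESeq2 the share for both knockdowns together was 4 in 9. The share of all genes with the libraries of a single guide wholly above or below the controls was not counted. Such separations, given for several genes above, therefore have no background here.

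The median log2 fold change of the 9 genes was 0.44 for both knockdowns together, 0.27 for NELFE and 0.74 for NELFB, beside medians near 0 for all tested genes (-0.002, -0.005 and -0.003). Both guides were compared with the same 3 control libraries, so their values are not independent of each other. These are bulk libraries, in which more cells expressing a gene and more RNA per cell cannot be told apart.

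The direct comparison of the knockdowns called none of the 9 genes by edgeR, against 0.237% of 16852 genes higher and 0.0771% lower with the NELFE guide than with the NELFB guide. Of the 9, 4 (EGR3, NR4A1, IER2 and IER3) had an unadjusted p under 0.05, as 5.12% of all tested genes did, and DESeq2 called 1, EGR3, lower with the NELFE guide, where it called 0.326% of genes higher and 0.208% lower. EGR3 was lower with the NELFE guide by a log2 difference of -1.12 (95% interval -1.67 to -0.57, edgeR adjusted p = 0.185 and DESeq2 adjusted p = 0.0109). EGR1 differed by -1.61 (-4.06 to 0.84), IER3 by -0.74 (-1.48 to -0.01), IER2 by -0.39 (-0.73 to -0.05) and NR4A1 by -0.37 (-0.65 to -0.10) on the log2 scale. None of these 4 differences passed the main edgeR test. With the replicate number as a block, edgeR called EGR1 (-1.37, adjusted p = 0.00046) and EGR3 (-1.01, adjusted p = 0.0037) lower with the NELFE guide. It called 126 of 16852 genes lower in that fit, and replicate numbers were not taken as pairing the libraries.

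**Figure D3:**
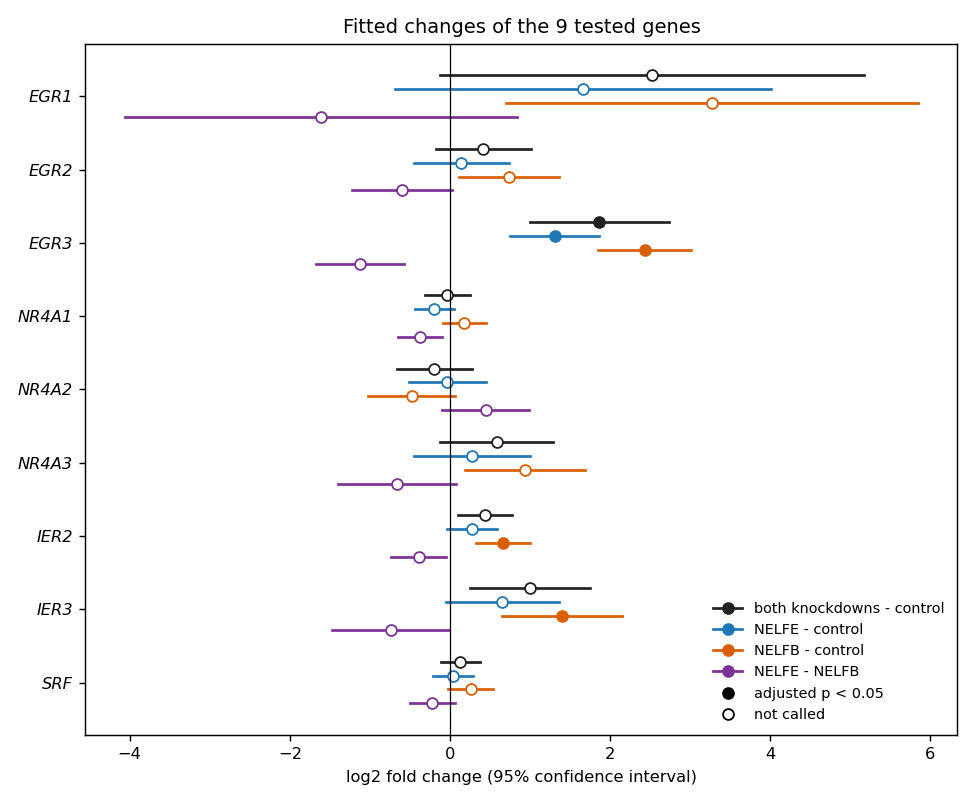
Fitted log2 fold change with its 95% confidence interval for the 9 tested genes in 4 comparisons (colours); filled points have an adjusted p under 0.05. EGR3 is filled in all 3 comparisons with control, IER2 and IER3 are filled for NELFB, and the EGR1 intervals are the widest.

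EGR1 stood out by its spread within groups. The pooled SD of its log2 CPM within the 3 groups was 1.29, against a median of 0.158 over 16852 tested genes, which put it at the 99.98th percentile. The highest library exceeded the lowest 6.41-fold among the controls, 8.14-fold among the NELFE knockdown libraries and 1.74-fold between the NELFB knockdown libraries. FOS, an early gene of the AP-1 family, had a within-group SD of 1.17. IER3 (0.454), NR4A2 (0.336), EGR3 (0.316) and NR4A3 (0.312) were also more variable than most genes. EGR2 (0.246), IER2 (0.200) and SRF (0.168) were closer to the median, at the 78.0th, 65.6th and 54.3rd percentiles, and NR4A1 (0.134) lay below it.

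The genes whose mean-centred log2 CPM over the 8 libraries lay closest to EGR1 were CDKN1A (root mean square difference 0.836), FOS (0.895), HES5 (0.923), CILP (0.942) and SSPOP (0.969), where the median over 12712 genes was 1.74. CDKN1A encodes the cyclin-dependent kinase inhibitor p21, HES5 is a Notch target and CILP encodes a cartilage matrix protein. HES5, CILP and SSPOP averaged 0.184, 1.10 and 0.962 CPM in the control libraries. They reached the average log2 CPM of 1 required here only through the knockdown libraries, so their likeness to EGR1 partly reflects that filter. CDKN1A was at 7.65, 11.0 and 5.69 CPM in the control libraries, 21.1, 72.1 and 25.5 CPM with the NELFE guide and 32.7 and 93.9 CPM with the NELFB guide, and replicate 2 was the highest in each group, as for EGR1. FOS was at 4.04, 3.90 and 1.05 CPM in the control libraries, 33.8, 70.2 and 7.26 CPM with the NELFE guide and 99.1 and 123.6 CPM with the NELFB guide. Even the closest of these genes differed from EGR1 by more than 0.8 log2 units. For SRF the closest were RAB15 (0.0443), RBPMS (0.0574), CFL1 (0.0650), CAPN2 (0.0670) and PDLIM5 (0.0676), with a median of 0.236 over the same genes. CFL1 encodes cofilin, an actin-severing protein, CAPN2 a calpain protease and PDLIM5 a scaffold protein of actin filaments.

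Related lists of genes, also chosen with earlier results of these data known, gave the setting for these values. Of all tested genes, edgeR called 13.3% higher and 12.7% lower in both knockdowns together. The shares were 7.92% and 7.04% with the NELFE guide, and 10.6% and 8.88% with the NELFB guide. Of the 7 AP-1 subunits, which form the other main family of early transcription factors, 5 were called higher and 0 lower in both knockdowns together, with a median log2 fold change of 0.82. FOS (log2 fold change 4.47), FOSL2 (2.04), FOSB (1.44) and JUNB (0.78) were the largest of those. Without control replicate 2 none of the 7 was called by edgeR, without control replicate 3 it was 1, and without control replicate 1, or without a filter on low counts, it was 2. With the NELFE guide 3 of 7 were higher, but 0 were without control replicate 2, control replicate 3 or NELFE replicate 1, 1 was without NELFE replicate 2 or either NELFB library, and 5 were by DESeq2. With the NELFB guide 6 of 7 were higher.

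Of 24 other early genes, 23 were tested, and 11 were called higher and 3 lower in both knockdowns together. Of all tested genes 13.3% were called higher and 12.7% lower, so the lower count of the list was near the background. CCN2, a secreted matrix protein (log2 fold change 2.68), ARC, a regulator of synaptic receptors (1.67), BTG2, an antiproliferative cofactor of mRNA decay (1.34), and KLF10, a zinc finger repressor (1.07), were the largest of the 11 called higher. Without control replicate 2 the higher count was 7. The lower count was 1 without control replicate 2 or 3, NELFE replicate 2 or NELFB replicate 1, and 2 without any one of the other libraries. With the NELFE guide 9 were higher and 1 lower (7.92% and 7.04% of all tested genes). With the NELFB guide 14 were higher and 1 lower (10.6% and 8.88% of all tested genes). Leaving out each library in turn, the lower count ranged from 0 to 1 for NELFE and from 0 to 2 for NELFB. The higher count was 5 for NELFE without control replicate 2, and it was 7 and 8 for NELFB without NELFB replicate 1 and 2.

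The partners and targets of SRF were taken separately. Of 6 SRF cofactors, 5 were tested and none was called in both knockdowns together, where 13.3% of all tested genes were called higher and 12.7% lower. By edgeR 1 of the 5 had an unadjusted p under 0.05, as did 38.5% of all tested genes. ELK1 (log2 fold change -0.13), ELK3 (-0.12) and ELK4 (-0.14) are the ETS-type cofactors that ERK phosphorylates, and MRTFA (0.15) and MRTFB (0.18) are those that respond to actin. Of 14 cytoskeletal genes known as MRTF-SRF targets, 12 were tested, and 3 were called higher and 0 lower, against 13.3% and 12.7% of all tested genes. The median log2 fold change of the 12 was 0.36. The 3 called were TAGLN (log2 fold change 3.06), FLNA (0.73) and VCL (0.55), all of which encode actin-binding proteins. With the NELFE guide 4 of the 12 were higher (7.92% of all tested genes), and with the NELFB guide 6 were higher (10.6% of all tested genes). In both knockdowns together DESeq2 called 6, and edgeR called 5 with at least 10 counts in every library, 5 without NELFE replicate 1 and 6 without NELFE replicate 2. Without control replicate 2 or 3 the NELFE count was 2.

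The ERK feedback genes encode phosphatases and Sprouty-type inhibitors induced by the ERK pathway. Of 8, 0 were called higher and 1 lower in both knockdowns together, against 13.3% and 12.7% of all tested genes. By edgeR 3 of the 8 had an unadjusted p under 0.05, as did 38.5% of all tested genes. The gene called lower was SPRED2 (log2 fold change -0.53), an inhibitor of ERK activation. With the NELFE guide 0 of the 8 were higher and 1 lower (7.92% and 7.04% of all tested genes). With the NELFB guide 1 was higher and 1 lower (10.6% and 8.88%), with a median log2 fold change of 0.58. By edgeR 5 of the 8 had an unadjusted p under 0.05 for NELFB (34.7% of all tested genes) and 2 for NELFE (30.9%). Of 6 heat shock genes, 2 were higher in both knockdowns together, against 13.3% of all tested genes. These were HSPA1B (log2 fold change 0.77) and HSPA1A (0.75), which are near-identical copies whose unique reads are uncertain.

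**Figure D4:**
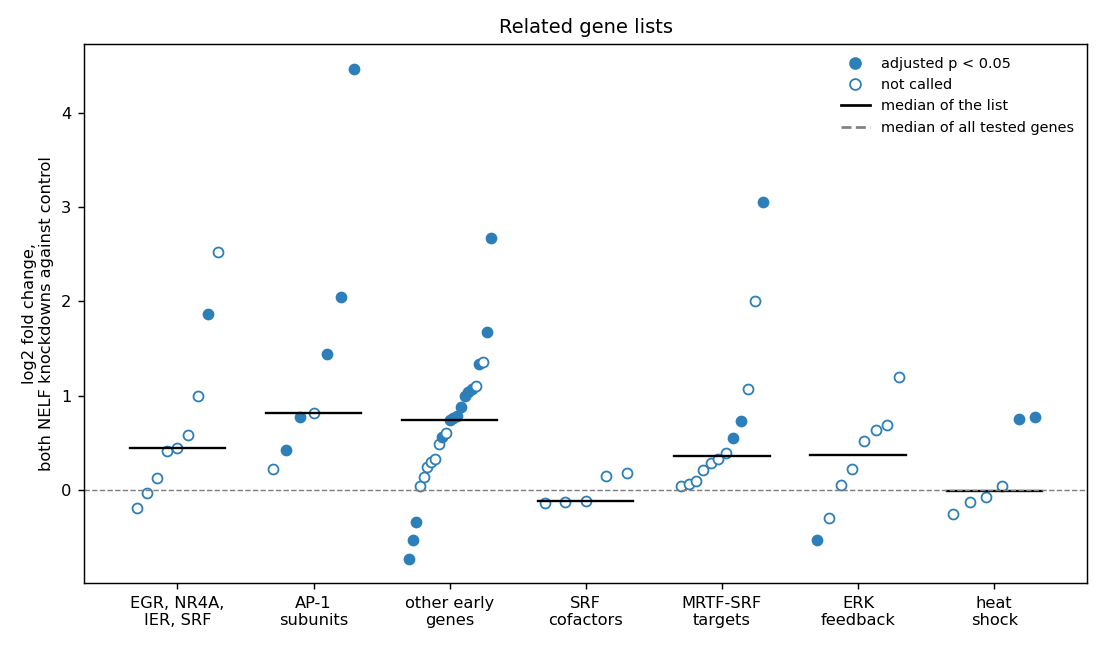
Log2 fold change of each tested gene in 7 lists, both NELF knockdowns against control; filled points have an adjusted p under 0.05, black bars are list medians and the dashed line is the median of all tested genes. The AP-1 list has 5 filled points above 0 and the SRF cofactors have none.

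Some other features of the libraries moved with the groups, whereas the mitochondrial share with the NELFE guide and the mesenchymal sum overlapped the controls. Mitochondrial genes took 4.62, 3.72 and 3.48% of reads in the control libraries, 4.26, 4.47 and 4.36% with the NELFE guide and 4.81 and 5.01% with the NELFB guide. Ribosomal protein genes took 4.74, 4.61 and 4.60% in the control libraries, 4.07, 4.02 and 3.99% with the NELFE guide and 4.08 and 3.81% with the NELFB guide, with no overlap between control and knockdown. Of 5 epithelial markers, KRT19 had no reads and KRT18 was the most abundant, and their summed level was 32.8, 31.2 and 33.8 CPM in the control libraries, 49.7, 36.6 and 57.9 CPM with the NELFE guide and 74.4 and 49.9 CPM with the NELFB guide. The 7 haematopoietic markers summed to 0.219 to 0.443 CPM in the control libraries and 0.790 to 3.19 CPM in the knockdown libraries, mostly from CD34, with HBG1 at 0 reads throughout. The 4 mesenchymal markers were dominated by VIM and summed to 357.3, 418.4 and 477.3 CPM in the control libraries, 368.0, 375.8 and 528.0 CPM with the NELFE guide and 452.2 and 415.7 CPM with the NELFB guide. Of the 3 tested in both knockdowns together, COL3A1 was called higher (log2 fold change 5.45, edgeR adjusted p = 0.0118), at 0.200, 0.310 and 0.219 CPM in the control libraries, 8.10, 2.62 and 4.37 CPM with the NELFE guide and 26.8 and 12.0 CPM with the NELFB guide. COL3A1 passed the filter on low counts only through the knockdown libraries, so its fold change is measured from near the floor. VIM (log2 fold change 0.01) and COL1A1 (-0.13) were not called. The part of these differences in the results above was not tested.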

How the data were processed

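PolyA RNA libraries of 8 HAP1 cultures were sequenced as single-end 65-bp reads. Per the study's methods and the labels, the authors checked reads with FastQC 0.11.6 and aligned them to GRCh38 with STAR 2.5.4a, counting unstranded reads per gene on GENCODE v24. What the authors deposited is a table of raw counts with 1 column per library, 22037423 to 24444185 in all per library. EGR2, NR4A3 and EGR4 had the fewest counts and so the largest relative counting error.

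The test was edgeR 4.0.16 in R 4.3.3. Genes were kept by filterByExpr, libraries were scaled by TMM, a robust quasi-likelihood model was fitted, and p-values were adjusted by Benjamini-Hochberg over all genes tested (threshold 0.05). Both knockdowns were compared with control in a 2-group model (16367 genes), where differences between the knockdowns count as spread, and each knockdown in a 3-group model (16852 genes). DESeq2 1.42.0, its size factors, other filters, a prior count of 2, a replicate block, only the libraries compared, and leaving out each library were alternatives. The steps were tested on simulated data. TPM used GENCODE v44 exon lengths. Profile likeness used log2(CPM + 0.5) of genes whose average log2 CPM reached 1.

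The genes, lists and tests were chosen with earlier results of these data known. The text names all 10 genes, the guide targets, the 5 genes with the profile most like EGR1 and SRF, and at most 4 called genes per list with the largest change (all NAB genes and tested SRF cofactors). Other genes named (markers, RXRA, RXRB, NR4A1AS) identify lists or overlaps.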

Additional observations from a re-analysis of the deposited data

How the results depend on the processing

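Another normalisation (DESeq2's size factors in edgeR) moved no count of calls by over 1.5 times. A prior count of 2 alters the fold changes and not the p-values, so it could not change a call. It is still among the 14 or 15 alternatives counted above. For both knockdowns against control, the described genes called higher by edgeR went from 1 to 4 by DESeq2 and to 2 with at least 10 counts in every library. Without a filter on low counts (33854 genes, EGR4 included) 2 were called higher for NELFE (EGR3 and IER3). For NELFB 5 were higher (EGR3, EGR4, NR4A3, IER2 and IER3) and 1 lower (NR4A2). Over all genes the unfiltered fit kept 2284 of the 2520 main calls for NELFE and 2982 of the 3290 for NELFB. Between the knockdowns, DESeq2 and the unfiltered fit each called 1 of the described genes lower (EGR3). Over all genes that comparison called 35 lower by DESeq2, 66 higher and 95 lower without a filter, and 8 lower with at least 10 counts or with only the libraries of the 2 groups. By CPM in place of TPM, IER2 ranked 4 and NR4A1 ranked 3 in control cells. The cause of these shifts was not tested.

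With 1 library left out, the described genes called higher ranged from 1 to 2 for both knockdowns, from 1 to 2 for NELFE and from 1 to 4 for NELFB. All genes called higher ranged from 1360 to 2526 and lower from 1328 to 2599 for both knockdowns, from 561 to 1620 and 429 to 1503 for NELFE, from 380 to 2218 and 223 to 2098 for NELFB, and from 24 to 47 and 2 to 34 between the knockdowns. Without a NELFB library, the lone one was assumed to vary like the other groups. Signs turned only for uncalled genes: NR4A1 ranged from -0.14 to 0.025 for both knockdowns and from -0.015 to 0.34 for NELFB, and for NELFE EGR2 ranged from -0.072 to 0.33, NR4A2 from -0.17 to 0.20 and SRF from -0.084 to 0.12 (log2 fold changes).

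Replicate numbers were not taken as pairing the libraries, since only 4 of 7 same-numbered pairs had deviations correlated above 0.1 (from -0.03 to 0.55). Yet 7 of 8 libraries correlated best with their own number, and same-numbered control and NELFE libraries correlated at 0.35, 0.065 and 0.55. The 2 NELFB libraries deviate from their mean by equal and opposite amounts, so their pairs are not separate checks. Whether the numbers mark shared cultures was therefore not settled. With the replicate number as a block, the described genes called higher were 2 for both knockdowns, 3 for NELFE (EGR1, EGR3 and IER3) and 6 for NELFB (EGR1, EGR3, NR4A3, IER2, IER3 and SRF), with 1 lower (NR4A2), and 2 were lower with the NELFE than with the NELFB guide (EGR1 and EGR3). The EGR1 adjusted p by edgeR under the block was 2.1e-05 for NELFE (log2 fold change 1.60), 2.0e-07 for NELFB (2.97) and 0.00046 between the knockdowns (-1.37), and 0.067 for both knockdowns together. In each replicate number EGR1 was lower in the control than in any knockdown library of that number. Under the block 2408 of 16852 genes were higher and 2355 lower for NELFE, 2312 were lower for NELFB, and 69 were higher and 126 lower between the knockdowns. For NELFB the main test called 1793 genes higher, and the block kept 3270 of the 3290 genes called there in either direction.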
